A study of Mus musculus with 12 samples.

Results

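A set of 10 genes known to be switched on by cyclic AMP was followed in differentiating 3T3-L1 cells: Nr4a1, Nr4a2, Nr4a3, Crem, Fosb, Fos, Pde4b, Pde4d, Pde10a and Rgs2. They were chosen by gene name, with earlier results of these data known, and all 10 are among the 39423 genes of the table. 3T3-L1 is a mouse preadipocyte line that forms fat cells when given DMI, which combines dexamethasone, insulin and 3-isobutyl-1-methylxanthine (IBMX). Cells carried a control siRNA (siCtrl) or an siRNA against PRMT1 (siPRMT1), an arginine methyltransferase, and mRNA was sequenced after 24 h (day 1) or 72 h (day 3) of DMI, with 3 libraries in each of the 4 conditions. All 12 libraries received DMI, so the induction of a gene by DMI itself was not measured here. The study's methods speak of independent experiments in general, but neither they nor the labels say that these replicates were separate cultures, and p-values then measure only the spread between these libraries, which may be technical.

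Cyclic AMP is made by adenylyl cyclases, activates protein kinase A, and leads to phosphorylation of the transcription factor CREB, which binds the cAMP response element in target promoters. IBMX inhibits phosphodiesterases, the enzymes that break cyclic AMP down, and is included in DMI because a rise of cyclic AMP promotes the first steps of adipogenesis. Many CREB targets are immediate early genes, and several of them limit the pathway: Pde4b, Pde4d and Pde10a encode phosphodiesterases, Crem can give the repressor ICER from an internal promoter, and Rgs2 encodes a GTPase-activating protein that restrains G protein signaling.

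The promoters of the genes are shown first, and were searched for the letters that CREB is known to bind. RefSeq promoters on GRCm38.p6, from 250 bases before to 50 bases after a start, were found for 9 of the 10 genes, with 13 promoters in all. The complete palindromic element TGACGTCA was in none of the 13, against 1.79% of all 32851 promoters. The shorter core TGACG, which lies inside the palindrome, was searched on both strands and was in 7 of the 13 promoters, against 20.8% of all promoters. It was in 7 of the 9 genes, against 23% of 27025 genes. In the sequences below, 5′ to 3′ on the strand of the gene, capitals mark TGACG or its reverse complement CGTCA. The 3 Nr4a promoters, Fos and Rgs2 are given because they hold the most copies, and Pde10a because it holds none in its 2 promoters, of which 1 is given.
Nr4a1, chr15:101266596-101266895, plus strand: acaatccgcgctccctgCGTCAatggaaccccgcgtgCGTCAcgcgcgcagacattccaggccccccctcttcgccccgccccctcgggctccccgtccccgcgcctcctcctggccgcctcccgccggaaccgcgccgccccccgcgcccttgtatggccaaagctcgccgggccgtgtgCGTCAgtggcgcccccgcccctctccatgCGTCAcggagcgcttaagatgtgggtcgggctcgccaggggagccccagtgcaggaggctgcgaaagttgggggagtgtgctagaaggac
Nr4a2, chr2:57123954-57124253, minus strand: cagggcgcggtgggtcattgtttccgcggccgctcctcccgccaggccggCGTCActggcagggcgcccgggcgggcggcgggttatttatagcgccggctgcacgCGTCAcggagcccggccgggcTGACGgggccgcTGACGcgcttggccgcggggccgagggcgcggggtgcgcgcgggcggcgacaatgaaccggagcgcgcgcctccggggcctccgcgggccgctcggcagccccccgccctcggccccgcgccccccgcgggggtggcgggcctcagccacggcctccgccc
Nr4a3, chr4:48045055-48045354, plus strand: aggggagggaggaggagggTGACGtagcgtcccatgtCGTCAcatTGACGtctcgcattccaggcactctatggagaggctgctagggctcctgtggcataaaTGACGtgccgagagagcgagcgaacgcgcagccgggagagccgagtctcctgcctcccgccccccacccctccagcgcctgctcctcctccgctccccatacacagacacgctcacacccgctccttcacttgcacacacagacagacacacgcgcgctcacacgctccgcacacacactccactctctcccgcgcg
Fos, chr12:85473640-85473939, plus strand: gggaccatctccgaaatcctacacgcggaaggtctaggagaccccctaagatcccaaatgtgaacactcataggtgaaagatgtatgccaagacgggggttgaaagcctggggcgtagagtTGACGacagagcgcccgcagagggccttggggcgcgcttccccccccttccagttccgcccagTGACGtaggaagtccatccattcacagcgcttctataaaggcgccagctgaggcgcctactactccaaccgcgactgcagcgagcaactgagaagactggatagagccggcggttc
Rgs2, chr1:144004100-144004399, minus strand: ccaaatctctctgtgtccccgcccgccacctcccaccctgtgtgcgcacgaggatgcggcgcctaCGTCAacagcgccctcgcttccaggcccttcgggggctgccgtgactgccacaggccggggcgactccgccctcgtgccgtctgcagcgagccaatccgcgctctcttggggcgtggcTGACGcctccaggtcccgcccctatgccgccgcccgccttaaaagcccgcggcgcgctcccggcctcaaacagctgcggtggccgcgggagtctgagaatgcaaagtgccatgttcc
Pde10a, chr17:8801495-8801794, plus strand: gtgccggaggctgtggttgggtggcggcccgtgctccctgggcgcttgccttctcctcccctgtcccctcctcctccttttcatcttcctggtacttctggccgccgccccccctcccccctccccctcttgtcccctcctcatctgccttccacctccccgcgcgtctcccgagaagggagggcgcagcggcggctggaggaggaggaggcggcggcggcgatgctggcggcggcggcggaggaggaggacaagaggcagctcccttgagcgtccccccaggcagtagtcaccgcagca

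Each of the 3 Nr4a promoters held 4 copies, and at least 4 copies were present in 0.231% of all promoters. In Nr4a1 the first bases of the matches lay 233, 213, 69 and 40 bases before the start. In Nr4a2 they lay 200, 144, 123 and 111 bases before the start. In Nr4a3 they lay 231, 213, 205 and 147 bases before it. Fos and Rgs2 held 2 copies each, at 129 and 66 bases and at 185 and 67 bases before their starts, while at least 2 copies were in 5.01% of all promoters. Fosb held 1 copy, at 60 bases, and 1 of the 4 Pde4b promoters held 1, at 34 bases. Pde4d, like Pde10a, had no match. Only 1 window was found for Pde4d, which has 8 RefSeq transcripts, so starts outside that window were not searched. A match describes letters and is not evidence of binding, and genes with several promoters have more windows in which a match can be found.

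The libraries held 15116462 to 42357137 counts on genes, and 1 of them, replicate 3 of siCtrl at day 1, stood apart. Its chi-square per gene against its mates was 30.8 and 50.6, compared with 4.14 to 15.8 for the other pairs of replicates, so the log2 fold changes and calls that use it were also computed without it. Prmt1 itself was lower in siPRMT1 cells at both days. At day 1 it averaged 85.8 ± 4.71 FPKM (SD, n = 3) in siCtrl and 41.3 ± 2.61 FPKM (SD, n = 3) after siPRMT1. The log2 fold change was -1.11, with an edgeR adjusted p of 9.8e-04, and -1.07 (8.0e-07) without siCtrl replicate 3. At day 3 the means were 124 ± 15.1 and 67.4 ± 4.92 (SD, n = 3 each), with a log2 fold change of -0.88 and an edgeR adjusted p of 1.2e-05. FPKM are counts relative to the length of the gene and the depth of the library, and only FPKM are used here to compare the levels of different genes. Each gene has a single exon length for all its isoforms, so the order of levels between genes depends on that length.

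The 10 genes covered a wide range of levels. In siCtrl cells at day 1, Rgs2 had the highest mean of the 10, 108 ± 7.26 FPKM, and Nr4a3 the lowest, 0.267 ± 0.0764 FPKM (SD, n = 3 each). The order was Rgs2, Nr4a1, Pde4b, Fos, Pde4d, Pde10a, Crem, Nr4a2, Fosb and Nr4a3, and only Fosb and Nr4a3 were neighbours whose ranges over the libraries overlapped. In siPRMT1 cells at day 1, Pde4d, Fos and Pde10a followed each other with overlapping ranges and Nr4a3 stood above Fosb. In siCtrl cells at day 3, Pde4b and Nr4a1 overlapped, as did Nr4a2 and Fosb, and Crem stood above Pde10a. No neighbours overlapped in siPRMT1 cells at day 3. The median over the 10 genes was 4.04 FPKM in siCtrl cells and 4.79 FPKM after siPRMT1 at day 1, and 1.09 and 1.15 FPKM at day 3. Over the 26095 genes with a count in at least 1 library these medians were 0.270, 0.311, 0.355 and 0.353.

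**Figure D1:**
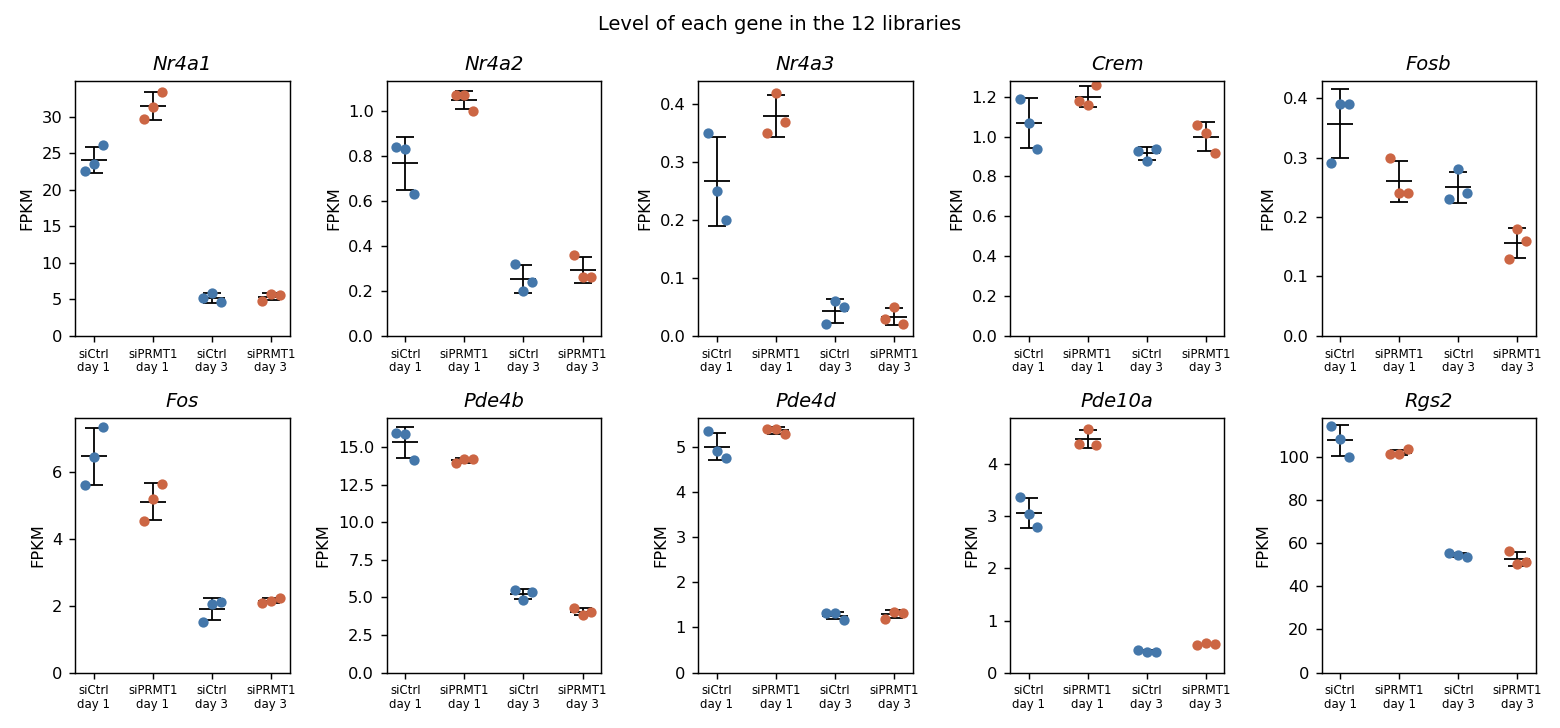
Level of each gene in FPKM (vertical axis, linear from 0, a separate scale for each gene) in the 12 libraries, by siRNA and day of DMI; points are libraries, bars the mean and SD of 3. Most genes stand higher at day 1 than at day 3, whereas Crem changes little: its 12 values lie between 0.88 and 1.26 FPKM.

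The first comparison asked how these genes changed between the first and the third day of DMI. In siCtrl cells 8 of the 10 fell and none rose. Pde10a fell most, to 0.129 of its level at day 1, followed by Nr4a3, Nr4a1, Pde4d, Fos, Nr4a2, Pde4b and Rgs2, while Crem and Fosb did not pass the test. In siPRMT1 cells the same 8 genes and Fosb were called lower. A gene was called where its edgeR adjusted p was under 0.05 and its log2 fold change was more than 0.5 from 0. By that rule 20.4% of the 13829 genes tested were lower and 22.7% higher in siCtrl cells, and 17.4% of 14224 were lower and 19.0% higher in siPRMT1 cells. The median log2 fold change of the 10 genes was -1.74 in siCtrl and -1.84 in siPRMT1 cells, beside -0.004 and 0.002 for all genes tested. At any fold change, 8 of 10 and 10 of 10 passed the adjusted p, against 58.9% and 63.4% of all genes. The FPKM ranges of the days did not overlap for 9 of 10 genes in siCtrl cells, all but Crem, and for 10 of 10 in siPRMT1 cells, where 64.7% and 66.7% of all genes tested did the same. In CPM with the TMM scaling of the fit, which sets the libraries on a common scale, they did not overlap for 10 of 10 genes in both, against 64.4% and 66.6%.

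Nr4a1, an orphan nuclear receptor and immediate early gene, had 22.59, 23.53 and 26.08 FPKM in the siCtrl libraries at day 1 and 5.15, 5.85 and 4.58 at day 3. In siPRMT1 cells it had 29.63, 31.28 and 33.42 FPKM at day 1 and 4.81, 5.67 and 5.55 at day 3. Every library of day 3 was thus far below every library of day 1, and the log2 fold change was -2.29 (SE 0.116, edgeR adjusted p = 1.7e-07) in siCtrl and -2.57 (SE 0.0732, edgeR adjusted p = 3.6e-12) in siPRMT1 cells. Nr4a2, its close relative, was at 0.84, 0.83 and 0.63 FPKM at day 1 and 0.32, 0.20 and 0.24 at day 3 in siCtrl cells, with no overlap of the days. Its log2 fold change was -1.66 (SE 0.207, edgeR adjusted p = 7.7e-05) there and -1.87 (SE 0.145, edgeR adjusted p = 7.6e-08) in siPRMT1 cells. Nr4a3, the third receptor of the family, had 93, 34 and 27 counts in the siCtrl libraries at day 1 and 3, 6 and 7 at day 3. In siPRMT1 cells it had 52, 71 and 57 counts at day 1 and 4, 9 and 3 at day 3. At day 3 Nr4a3 was near the limit of 3 counts that a count of 0 allows in a library. Its log2 fold changes of -2.72 (SE 0.369, edgeR adjusted p = 1.3e-04) and -3.43 (SE 0.287, edgeR adjusted p = 1.6e-07) rest on these few counts. Nr4a1 made up 94.2% to 95.8% of the summed FPKM of the 3 receptors in the 4 conditions, so the mRNA of the family was nearly all Nr4a1 at both days.

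The 3 phosphodiesterase genes also fell. Pde10a, whose enzyme breaks down both cyclic AMP and cyclic GMP, was at 3.37, 3.04 and 2.8 FPKM in siCtrl cells at day 1 and at 0.44, 0.4 and 0.4 at day 3. The days were far apart, and the log2 fold change of -2.95 (SE 0.115, edgeR adjusted p = 3.2e-08) was the 60th lowest of 13829 genes. Its log2 fold change in siPRMT1 cells, -3.06 (SE 0.0748, edgeR adjusted p = 9.2e-13), was the 40th lowest of 14224 genes. Pde4b, a phosphodiesterase specific for cyclic AMP, was at 15.92, 15.87 and 14.14 FPKM at day 1 and at 5.48, 4.86 and 5.37 at day 3 in siCtrl cells. It fell by 1.62 on the log2 scale (SE 0.0909, edgeR adjusted p = 3.3e-07) in siCtrl and by 1.82 (SE 0.0661, edgeR adjusted p = 3.9e-11) in siPRMT1 cells. Pde4d, another enzyme of the same family, was at 5.34, 4.9 and 4.76 FPKM at day 1 and at 1.31, 1.31 and 1.17 at day 3. No library of day 3 came near those of day 1, and the log2 fold change was -2.06 in both siCtrl (SE 0.0920, edgeR adjusted p = 8.0e-08) and siPRMT1 cells (SE 0.0637, edgeR adjusted p = 7.6e-12). The 3 genes span chr4:102087528-102607262, chr13:108654177-109955969 and chr17:8525185-8986648 on GRCm38 for Pde4b, Pde4d and Pde10a, and each gives several isoforms from separate starts, which counts per gene do not separate.

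The Fos genes differed from each other. Fos, a subunit of the transcription factor AP-1, was at 5.59, 6.45 and 7.32 FPKM in siCtrl cells at day 1 and at 1.52, 2.05 and 2.12 at day 3. In siPRMT1 cells Fos was at 4.52, 5.17 and 5.62 FPKM and then at 2.08, 2.14 and 2.23. The days were separate in both, and Fos fell by 1.83 on the log2 scale (SE 0.171, edgeR adjusted p = 1.1e-05) in siCtrl and by 1.26 (SE 0.111, edgeR adjusted p = 2.8e-07) in siPRMT1 cells. Fosb, its relative, was at 0.29, 0.39 and 0.39 FPKM at day 1 and at 0.23, 0.28 and 0.24 at day 3 in siCtrl cells, and at 0.3, 0.24 and 0.24 and then 0.13, 0.18 and 0.16 in siPRMT1 cells. These values stand on 11 to 48 counts a library. The log2 fold change of Fosb was -0.55 (SE 0.240, edgeR adjusted p = 0.0719) in siCtrl and -0.70 (SE 0.253, edgeR adjusted p = 0.0273) in siPRMT1 cells. The call of Fosb was lost without siPRMT1 replicate 1 of day 1 (log2 fold change -0.58, edgeR adjusted p = 0.111), replicate 1 of day 3 (-0.58, 0.0879) or replicate 3 of day 3 (-0.72, 0.0546), and with DESeq2 (-0.71, 0.125). In siCtrl cells it was gained without replicate 1 of day 1 (-0.73, edgeR adjusted p = 0.0341) and in a fit over all 12 libraries (-0.55, 0.0427).

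Rgs2 had the highest level of the 10 genes in all 4 conditions. It was at 114.52, 108.34 and 100.05 FPKM at day 1 and at 55.3, 54.37 and 53.56 at day 3 in siCtrl cells, and at 101.23, 101.29 and 103.55 and then 56.43, 50.37 and 51.36 in siPRMT1 cells. The days did not overlap, and Rgs2 fell by 1.05 on the log2 scale (SE 0.0767, edgeR adjusted p = 1.9e-06) in siCtrl and by 0.97 (SE 0.0608, edgeR adjusted p = 9.0e-09) in siPRMT1 cells. Crem was at 1.19, 1.07 and 0.94 FPKM at day 1 and at 0.93, 0.88 and 0.94 at day 3 in siCtrl cells, where the days met at 0.94. Its log2 fold change was -0.30 (SE 0.138, edgeR adjusted p = 0.0871) in siCtrl and -0.28 (SE 0.105, edgeR adjusted p = 0.034) in siPRMT1 cells, where only the fold change was too small for a call. Crem has 62 RefSeq transcripts, and ICER is not told apart from the longer forms in counts per gene.

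**Figure D2:**
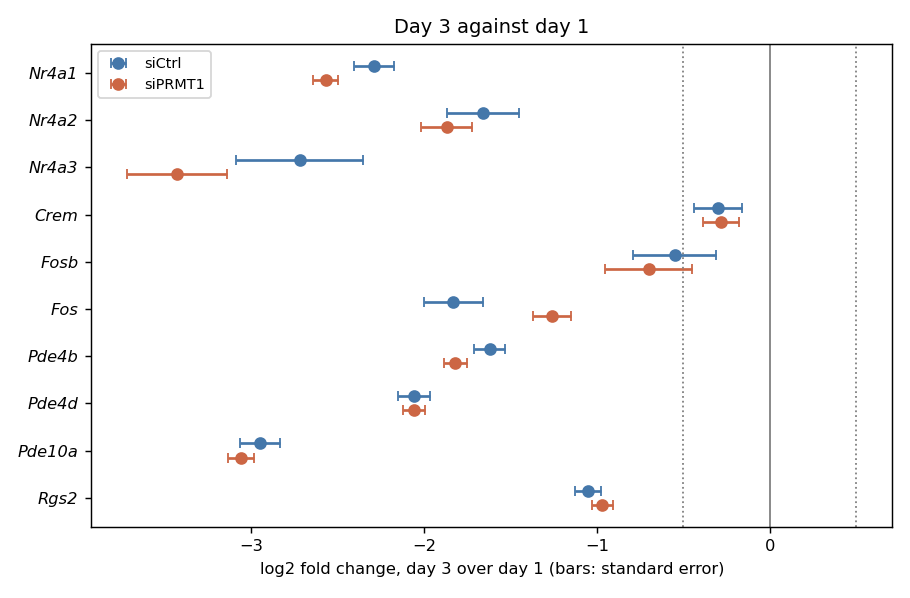
Log2 fold change of day 3 over day 1 (horizontal axis) for the 10 genes in siCtrl and siPRMT1 cells, from edgeR; bars are standard errors and dotted lines mark the threshold of 0.5 in either direction. All 20 values are below 0, from -0.28 for Crem to -3.43 for Nr4a3, both in siPRMT1 cells.

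The calls of the 8 genes that fell in both siRNA groups were kept in every fit that left out 1 library, including those without siCtrl replicate 3 of day 1. Markers of the cells moved over the same days. The summed FPKM of 8 adipocyte markers went from 148 to 154 at day 1 to 2802 to 3019 at day 3 in siCtrl cells, and from 112 to 126 to 2175 to 2384 in siPRMT1 cells, with 8 of 8 called higher in both. The sum of 8 preadipocyte markers went from 1354 to 1404 down to 485 to 518 in siCtrl cells, and from 1278 to 1308 down to 596 to 676 in siPRMT1 cells, with 7 of 8 called lower in both. The part of these shifts in the fall of the 10 genes was not tested, and in bulk RNA fewer cells of a type and less RNA per cell cannot be told apart. Markers of macrophages summed to no more than 2.56 FPKM, with Ptprc, which marks leukocytes, at 0 counts in all 12 libraries. Those of endothelial cells summed to no more than 0.880 FPKM. Markers of epithelial cells reached 11.4 FPKM at day 3, nearly all from the keratins Krt8 and Krt18, with Epcam and Cdh1 at no more than 2 counts in any library.

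The knockdown comparison asked whether siPRMT1 changed these genes at a given day. At day 1 none of the 10 was called by edgeR, and none by DESeq2, while 5 of 10 had an unadjusted edgeR p under 0.05, against 24.6% of all genes tested. Pde10a had the largest log2 fold change of the 10, just under the threshold, and passed the adjusted p. Nr4a1 passed it as well, at a smaller fold. By the same rule 1.95% of 13689 genes were called higher and 1.61% lower. At any fold change 2 of 10 genes passed the adjusted p, against 7.60% of all genes. The FPKM ranges of siPRMT1 and siCtrl did not overlap for 4 of the 10, Nr4a1, Nr4a2, Nr4a3 and Pde10a, all 4 with siPRMT1 on the higher side, against 32.2% of all genes in either direction. With the TMM scaling of the fit 5 of the 10 did not overlap, against 31.5% of all genes. These were Nr4a1, Nr4a2 and Pde10a on the higher and Fos and Pde4b on the lower side, so Nr4a3, Fos and Pde4b depended on the scale. The median log2 fold change was 0.08, beside 0.01 for all genes, with 6 values above and 4 below 0, and 0.01 without siCtrl replicate 3.

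Pde10a was at 3.37, 3.04 and 2.8 FPKM in the siCtrl and at 4.39, 4.68 and 4.38 in the siPRMT1 libraries of day 1. Its groups did not overlap, and its log2 fold change was 0.49 (SE 0.0892, edgeR adjusted p = 0.0175). Without siCtrl replicate 3, which has the lowest Pde10a level of the 6, it was 0.42 (edgeR adjusted p = 6.8e-04), and without siCtrl replicate 1 it was 0.57 (0.0176). Without any of the other 4 libraries in turn the adjusted p was 0.082 to 0.0954. Nr4a1, at 22.59, 23.53 and 26.08 FPKM in siCtrl and 29.63, 31.28 and 33.42 in siPRMT1 cells, was likewise separate. Its log2 fold change was 0.34 (SE 0.0757, edgeR adjusted p = 0.0348). The adjusted p of Nr4a1 was 5.5e-04 without siCtrl replicate 3, at a log2 fold change of 0.39, and 0.101 to 0.157 without any of the other 5 libraries.

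The other 2 receptors had values in the same direction that missed the test. Nr4a2 was at 0.84, 0.83 and 0.63 FPKM in siCtrl and at 1.07, 1.07 and 1.0 in siPRMT1 cells, with a log2 fold change of 0.39 (SE 0.139, edgeR adjusted p = 0.13). Nr4a3 was at 0.35, 0.25 and 0.20 against 0.35, 0.42 and 0.37 FPKM, and its log2 fold change was 0.42 (SE 0.221, edgeR adjusted p = 0.288). The highest siCtrl and the lowest siPRMT1 library of Nr4a3 were equal to 2 decimals. Fos was at 5.59, 6.45 and 7.32 FPKM in siCtrl and at 4.52, 5.17 and 5.62 in siPRMT1 cells, so the groups overlapped between 5.59 and 5.62, and its log2 fold change was -0.38 (SE 0.128, edgeR adjusted p = 0.111). With TMM scaling, here over all 12 libraries, the groups of Fos did not overlap, at 12.3 to 16.6 CPM in siCtrl and 9.47 to 11.5 CPM in siPRMT1 cells. Fosb had a log2 fold change of -0.48 (SE 0.224, edgeR adjusted p = 0.233), with replicate 1 at 0.29 FPKM in siCtrl and 0.3 in siPRMT1 cells. Without siCtrl replicate 3 the log2 fold changes were 0.27 for Nr4a2, 0.25 for Nr4a3, -0.28 for Fos and -0.39 for Fosb, with edgeR adjusted p from 0.0711 to 0.37.

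The remaining 4 genes had smaller values at day 1. Pde4b had a log2 fold change of -0.17 (SE 0.0739, edgeR adjusted p = 0.202) and Rgs2 of -0.13 (SE 0.0684, edgeR adjusted p = 0.292). Both passed the adjusted p without siCtrl replicate 3, Pde4b at -0.23 (edgeR adjusted p = 0.00611) and Rgs2 at -0.19 (0.0142). Pde4d, at 0.05 (SE 0.0707, edgeR adjusted p = 0.73), and Crem, at 0.10 (SE 0.124, edgeR adjusted p = 0.663), had the smallest values of the 10, both at 0.01 (edgeR adjusted p = 0.947) without siCtrl replicate 3.

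At day 3 again none of the 9 genes that could be tested was called by edgeR or DESeq2, and 3 of the 9 had an unadjusted edgeR p under 0.05, against 31.3% of all genes tested. By the same rule 2.84% of 14039 genes were called higher and 3.80% lower. At any fold change 2 of the 9 genes passed the adjusted p, Pde4b on the lower and Pde10a on the higher side, against 16.5% of all genes. The FPKM ranges of 3 of the 9 did not overlap, Pde10a higher and Pde4b and Fosb lower in siPRMT1 cells, against 34.8% of all genes, and the same 3 did not overlap with the TMM scaling, against 34.9%. The median log2 fold change was 0.04, beside 0.007 for all genes.

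Pde4b was at 5.48, 4.86 and 5.37 FPKM in siCtrl and at 4.29, 3.84 and 4.0 in the siPRMT1 libraries of day 3. All 3 siPRMT1 libraries were below all 3 siCtrl libraries, with a log2 fold change of -0.38 (SE 0.0836, edgeR adjusted p = 0.00577). The adjusted p of Pde4b stayed at or under 0.048 in each of the 6 fits without 1 library. Pde10a was at 0.44, 0.4 and 0.4 FPKM in siCtrl and at 0.53, 0.56 and 0.54 in siPRMT1 cells, again without overlap, with a log2 fold change of 0.38 (SE 0.107, edgeR adjusted p = 0.0259). Its adjusted p was 0.038 without siCtrl replicate 1 and 0.0376 without siPRMT1 replicate 1, and 0.0654 to 0.0954 without any of the other 4 libraries. Fosb was at 0.23, 0.28 and 0.24 FPKM against 0.13, 0.18 and 0.16. Its groups were separate, but on so few counts its log2 fold change of -0.63 (SE 0.270, edgeR adjusted p = 0.123) missed the test.

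The other genes tested at day 3 had overlapping groups. Their log2 fold changes were 0.04 for Nr4a1 (SE 0.102), 0.17 for Nr4a2 (SE 0.218), 0.12 for Crem (SE 0.120), 0.17 for Fos (SE 0.151), 0.03 for Pde4d (SE 0.0838) and -0.05 for Rgs2 (SE 0.0706), with edgeR adjusted p from 0.459 to 0.834. Nr4a3 had too few counts for the fit, and a two-sided exact permutation test of its CPM gave p = 0.6, where the smallest p that 3 against 3 libraries allow is 0.1.

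**Figure D3:**
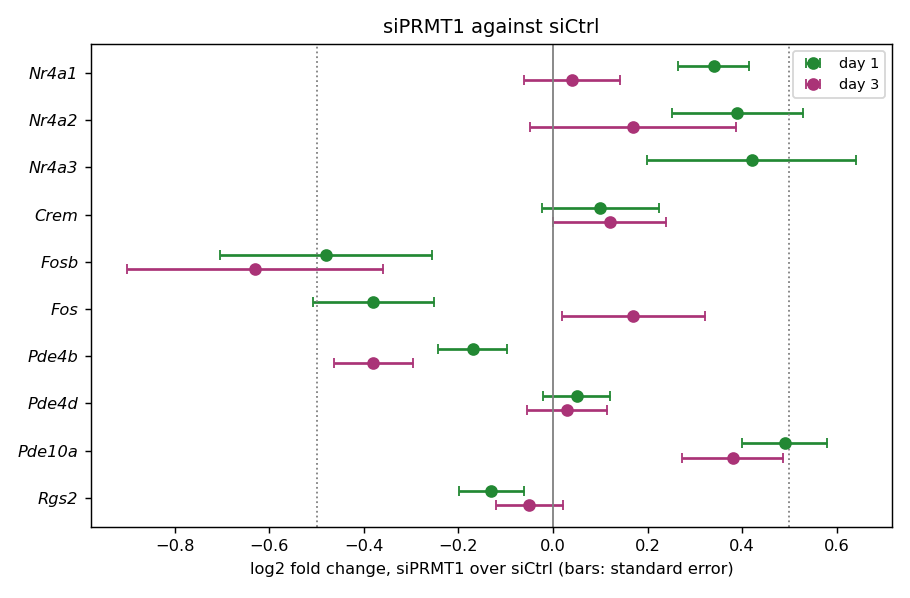
Log2 fold change of siPRMT1 over siCtrl (horizontal axis) for each gene at day 1 and day 3, from edgeR; bars are standard errors and dotted lines mark the threshold of 0.5 in either direction. Pde10a stands to the right at both days, at 0.49 and 0.38, and Pde4b to the left, at -0.17 and -0.38; Nr4a3 has no point for day 3.

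Within each library the 3 phosphodiesterase genes can be set against each other without a scaling of the library. Pde10a made up 12.8% to 13.7% of their summed FPKM in the siCtrl and 18.4% to 19.3% in the siPRMT1 libraries of day 1. At day 3 its share was 5.83% to 6.13% in siCtrl and 8.77% to 9.71% in siPRMT1 cells. The share of Pde10a was thus higher in siPRMT1 cells at each day, with no overlap, and lower at day 3 than at day 1 within each siRNA group. Pde4b, by FPKM the largest of the 3 in every library, went the other way. Its mean shares were 65.5% ± 1.05 in siCtrl cells and 58.9% ± 0.538 with siPRMT1 at day 1. At day 3 they were 75.7% ± 1.65 and 68.7% ± 2.37 (SD, n = 3 each). The shares depend on the exon lengths in FPKM, 7515 bases for Pde4b, 27941 for Pde4d and 16958 for Pde10a. In counts Pde4b was not the largest in every library. In siCtrl cells at day 1, Pde4d had 6323, 2931 and 2827 counts and Pde4b 5069, 2555 and 2260. These shares are descriptions of the same values as the fits above and were given no test. Among the Fos genes, Fos made up 94.8% ± 0.429 and 95.1% ± 1.2 of the summed FPKM at day 1 and 88.2% ± 1.36 and 93.1% ± 1.04 at day 3, in siCtrl and siPRMT1 cells respectively (SD, n = 3 each).

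**Figure D4:**
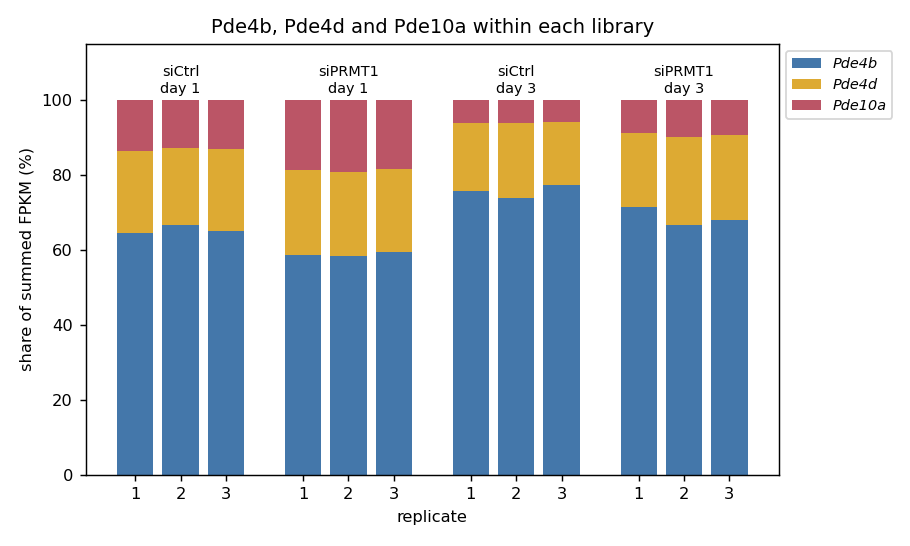
Share of the summed FPKM of Pde4b, Pde4d and Pde10a taken by each gene (vertical axis, percent) in the 12 libraries, 1 bar a library, in groups of 3 replicates. The Pde10a section on top of each bar is 12.8% to 13.7% in siCtrl and 18.4% to 19.3% in siPRMT1 libraries of day 1, and thinner in both at day 3.

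Whether the effect of siPRMT1 differed between the days was tested as an interaction over all 12 libraries. None of the 10 genes was called by edgeR or DESeq2 or passed on the adjusted p alone, where 8.24% of 14612 genes were called and 12.3% passed on the adjusted p alone. Fos had the smallest p, with a difference of log2 fold changes of 0.58, day 3 over day 1 (SE 0.207, unadjusted p = 0.0141, edgeR adjusted p = 0.0837), and was the only 1 of the 10 with an unadjusted p under 0.05, against 27.3% of all genes tested. It was called without siCtrl replicate 1 of day 1 (0.68, edgeR adjusted p = 0.0456), without a filter on low counts (0.62, 0.045) and with the replicate number as a block (0.59, 0.0294). Nr4a1 had an interaction of -0.27 (SE 0.137, edgeR adjusted p = 0.22), which without siCtrl replicate 3 of day 1 was -0.36 (0.0419). Nr4a3 had the largest value of the 10, -0.69, with an SE of 0.573 and an edgeR adjusted p of 0.476. The comparison of days in siCtrl cells shares its libraries with the knockdown comparisons, so the values of these comparisons for a gene are not independent.

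Genes with the pattern most like single members of the set were sought over the 12 libraries, among 12464 genes averaging 1 CPM or more, as those with the smallest root mean square difference of log2 CPM after each gene was centred on its own mean. Nearest to Pde10a was Vdr, the vitamin D receptor, at 0.134. Ccnb2, a mitotic cyclin, was nearest to Pde4b at 0.134, and Cdkn3 was nearest to Fos at 0.141. Tacc3 was nearest to Rgs2 at 0.0673, Cit to Pde4d at 0.0813 and Gpr161 to Crem at 0.0474. For Nr4a2, Nr4a3 and Fosb, whose counts were low, the nearest genes were Cep55 at 0.133, Myo1a at 0.325 and Spon2 at 0.138. Among themselves, Nr4a1 and Pde4d were the closest pair, at 0.232, with Pde4d the 18th nearest gene to Nr4a1. Pde10a was the 8th nearest to Nr4a3, at 0.429. Other pairs were far apart: Nr4a2 was the 188th nearest gene to Nr4a1 (0.453) and Fosb the 2109th nearest to Fos (0.578). Nr4a1 was the 11985th nearest to Crem (1.09). These distances describe likeness over 4 conditions only.

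The rest of the pathway was described by lists written by hand, 96 further genes in all. Of all genes tested, 1.95% were called higher and 1.61% lower after knockdown at day 1, and 2.84% and 3.80% at day 3. The medians of all genes were 0.01 and 0.007. The lists of the cyclases, of protein kinase A and of the CREB family had at most 1 gene called each. With so few genes in a list, these counts were not set apart from the shares of all genes. Of the adenylyl cyclases and the stimulatory G protein, 0 of 6 tested were called at day 1 and 1 of 7 at day 3, with medians of 0.04 and -0.16. The 1 called at day 3 was Adcy5, at 0.270 ± 0.0400 FPKM with siCtrl and 0.150 ± 0.0173 with siPRMT1 (SD, n = 3 each), with a log2 fold change of -0.87 (edgeR adjusted p = 0.0254) whose call was lost without any 1 of 4 libraries (siCtrl replicates 2 and 3, siPRMT1 replicates 2 and 3, adjusted p 0.0661 to 0.112). Of the protein kinase A subunits, its inhibitors and EPAC, 0 of 9 were called at day 1 and 1 of 9 at day 3, with medians of -0.02 and -0.07. That gene was Rapgef3, which encodes EPAC1, a cyclic AMP sensor apart from protein kinase A, with a log2 fold change of 0.52 (edgeR adjusted p = 0.0114), and its call was lost without siCtrl replicate 1 (0.44) or siPRMT1 replicate 3 (0.40). Of the CREB family, its coactivators and the Sik kinases, 0 of 12 were called at day 1 and 1 of 12 at day 3, with medians of 0.09 and -0.06. Creb5 was that gene, at only 0.0300 FPKM with siCtrl and 0.0900 ± 0.0300 with siPRMT1 (SD, n = 3 each), with a log2 fold change of 1.45 (edgeR adjusted p = 0.0092).

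In the lists of other CREB targets and of other AP-1 and early growth response factors, several genes rose after knockdown at day 1. The second is not a list of CREB targets. Beside these, 1.95% of all genes tested were called higher and 1.61% lower. Of the other CREB target genes, 3 of 11 were called higher and 0 lower, with a median log2 fold change of 0.23. Per1, a clock gene, rose from 17.1 ± 1.51 to 25.9 ± 1.53 FPKM, Bdnf, a neurotrophin, from 2.74 ± 0.285 to 4.34 ± 0.499, and Ptgs2, which encodes cyclooxygenase-2, from 1.96 ± 0.467 to 3.61 ± 0.412 (SD, n = 3 each). Their log2 fold changes were 0.55 (edgeR adjusted p = 0.00785), 0.61 (0.0219) and 0.82 (0.0312). Of the other AP-1 and early growth response factors, 4 of 14 were called higher and 0 lower, with a median of 0.18. Klf4, a zinc finger factor, rose from 9.19 ± 0.634 to 16.2 ± 0.358 FPKM (log2 fold change 0.77, edgeR adjusted p = 0.00302), Atf3 from 0.467 ± 0.104 to 1.14 ± 0.246 (1.19, 0.0259) and Fosl1 from 12.9 ± 2.58 to 23.5 ± 4.54 (0.82, 0.0262). All of these calls held without siCtrl replicate 3. Klf4 was called in 6 of the 6 fits without 1 library, Per1 in 3, Atf3 and Bdnf in 2, and Fosl1 and Ptgs2 in 1, the adjusted p of the lost calls lying between 0.0511 and 0.128. Leaving out siCtrl replicate 1 or 2 or any of the 3 siPRMT1 libraries each ended at least 1 of these calls, though none ended that of Klf4. Of the other RGS proteins 1 of 8 was called, Rgs16, which was lower in siPRMT1 cells at 0.627 ± 0.0603 against 1.16 ± 0.0751 FPKM (SD, n = 3 each, log2 fold change -0.93, edgeR adjusted p = 0.0142) and was called in 2 of the 6 fits. None of the 8 other genes with a Pde symbol that were tested was called at day 1. That list was made by symbol and not by enzyme activity. Without siCtrl replicate 3, 4 of 11 other CREB targets were called higher at day 1, with Cebpb (0.59, edgeR adjusted p = 0.0195) added. Of the CREB family list 1 of 12 was called higher, Creb5 (0.57, edgeR adjusted p = 0.0489), and the counts of the other pathway lists were as above.

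At day 3 the lists moved in both directions, beside 2.84% of all genes tested called higher and 3.80% lower. Of the other RGS proteins, 3 of 9 were called higher and 0 lower, with a median of 0.32. Rgs4 rose from 1.51 ± 0.159 to 2.66 ± 0.155 FPKM (log2 fold change 0.80, edgeR adjusted p = 4.6e-04) and Rgs16 from 3.85 ± 0.132 to 5.56 ± 0.471 (0.53, 0.00292; SD, n = 3 each). Rgs16 was called in 4 of 6 fits without 1 library, and was under the threshold on the fold change without siCtrl replicate 1 (0.49) or siPRMT1 replicate 2 (0.46). Rgs8, the remaining 1, was at no more than 0.137 ± 0.0306 FPKM (SD, n = 3) in any condition. Of the other CREB targets, 2 of 12 were called higher and 0 lower, with a median of 0.10. Gem, a small GTPase, was higher at 8.42 ± 0.0681 against 5.24 ± 0.50 FPKM (SD, n = 3 each, log2 fold change 0.68, edgeR adjusted p = 2.2e-04), and Ppargc1a, a coactivator of mitochondrial genes, was called at 0.55 (edgeR adjusted p = 0.0117) but not without siCtrl replicate 3 (0.43, 0.0644). Of the other AP-1 and early growth response factors, 0 of 14 were called higher and 2 lower, with a median of 0.02. Fosl1 fell from 30.1 ± 6.29 to 11.9 ± 1.51 FPKM (log2 fold change -1.34, edgeR adjusted p = 1.3e-05) and Maff from 5.41 ± 0.526 to 3.10 ± 0.286 (-0.81, 2.1e-04; SD, n = 3 each).

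Of the other genes with a Pde symbol, 2 of 9 were called lower and 0 higher at day 3, beside 3.80% and 2.84% of all genes. Their median was 0.09. Pde3b, the enzyme through which insulin lowers cyclic AMP in fat cells, was at 11.3 ± 0.513 FPKM with siCtrl and 7.97 ± 0.551 with siPRMT1 (SD, n = 3 each, log2 fold change -0.51, edgeR adjusted p = 3.0e-04). It was under the threshold on the fold change, at -0.49, -0.49 and -0.47, without siCtrl replicate 1, siPRMT1 replicate 2 or siPRMT1 replicate 3. Pde1b was called at -0.57 (edgeR adjusted p = 0.0449) in 2 of 6 fits without 1 library, and lost without siCtrl replicates 2 or 3 or siPRMT1 replicates 2 or 3 (adjusted p 0.0724 to 0.225). It was also lost with the replicate block (-0.57, edgeR adjusted p = 0.0522), in a fit over all 12 libraries (-0.57, 0.0558), with DESeq2 (-0.56, 0.0623) and with the limma fits (adjusted p 0.133 to 0.268). The sum of adipocyte markers was lower in siPRMT1 cells at both days, with 4 of 7 called lower at day 1 (3 of 7 without siCtrl replicate 3) and 3 of 8 at day 3, and 2 of 8 preadipocyte markers were called higher at day 3. Their part in these differences was not tested.

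Between day 1 and day 3, more genes fell than rose in the lists of other CREB targets, AP-1 and early growth response factors, and RGS proteins. Of all genes tested, 20.4% were lower and 22.7% higher in siCtrl cells, and 17.4% and 19.0% in siPRMT1 cells. The medians of all genes were -0.004 and 0.002, and several counts of genes called higher below are near these shares. Of the other CREB targets in siCtrl cells, 7 of 12 were called lower and 1 higher, with a median of -0.91, and in siPRMT1 cells 8 were lower and 2 higher, with a median of -1.36. Gem fell from 52.6 ± 1.87 to 5.24 ± 0.50 FPKM in siCtrl cells (log2 fold change -3.40, edgeR adjusted p = 7.6e-09), Dusp1, a phosphatase of MAP kinases, from 34.3 ± 3.75 to 11 ± 0.518 (-1.71, 8.5e-07) and Sik1, a kinase that restrains the CREB coactivators, from 69.8 ± 5.0 to 24.0 ± 2.82 (-1.61, 9.1e-07; SD, n = 3 each). Of the other AP-1 and early growth response factors, 6 of 14 were lower and 3 higher, with a median of -0.34, and in siPRMT1 cells 7 were lower and 1 higher, with a median of -0.61. Junb fell by 1.89 and Fosl2 by 1.74 on the log2 scale (edgeR adjusted p = 7.3e-07 and 8.3e-08), whereas Maff rose by 1.89 (2.2e-06). Of the other RGS proteins 5 of 8 were lower and 3 higher, led by Rgs4 at -1.65 (edgeR adjusted p = 2.5e-06) and Rgs16 at 1.66 (4.4e-06), and 5 of 9 were lower and 4 higher in siPRMT1 cells. Of the cyclases and the stimulatory G protein, 4 of 7 were higher and 0 lower in siCtrl cells, with a median of 0.54. Of the 7 values 5 were above and 2 below 0. Adcy5 and Adcy10, among the 4, had means of no more than 0.270 and 0.110 FPKM. Adcy6, at 27.5 ± 2.20 and then 42.0 ± 1.90 FPKM (SD, n = 3 each), was called at 0.54. Its call was lost without siCtrl replicate 1 of day 1 (0.48) or siCtrl replicate 2 (0.46) or 3 (0.49) of day 3. In siPRMT1 cells 3 of 7 were higher and 2 lower, with a median of 0.38.

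Of the other genes with a Pde symbol in siCtrl cells, 2 of 8 were higher and 3 lower from day 1 to day 3. Their median was -0.13, beside -0.004 for all genes tested. Pde1b went from 0.0467 ± 0.0115 to 1.30 ± 0.267 FPKM (SD, n = 3 each, log2 fold change 4.6, edgeR adjusted p = 7.5e-07), opposite to Pde4b, Pde4d and Pde10a, while Pde1a fell by 1.46 (4.5e-06). In siPRMT1 cells 2 of 10 were higher and 5 lower. Of the protein kinase A subunits, inhibitors and EPAC, 3 of 9 were higher and 4 lower in siCtrl cells and 3 higher and 0 lower in siPRMT1 cells. The regulatory subunits Prkar2b, at 1.13 (edgeR adjusted p = 2.0e-06), and Prkar2a, at 0.98 (1.1e-05), were among those that rose in siCtrl cells. Of the list of the CREB family, its coactivators and the Sik kinases, 2 of 12 were lower in siCtrl and 3 of 12 in siPRMT1 cells. None was higher. The 2 in siCtrl cells were Creb5 (-2.1, edgeR adjusted p = 6.9e-05) and Sik1, which is also counted among the other CREB targets. Without siCtrl replicate 3 of day 1, the genes named for siCtrl cells kept their calls. In that fit 3 of 12 genes of the CREB family list were lower, with Creb1 (-0.71, edgeR adjusted p = 4.2e-06) added. There 5 of 14 AP-1 and early growth response factors were lower, with Egr1 at -0.47.

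**Figure D5:**
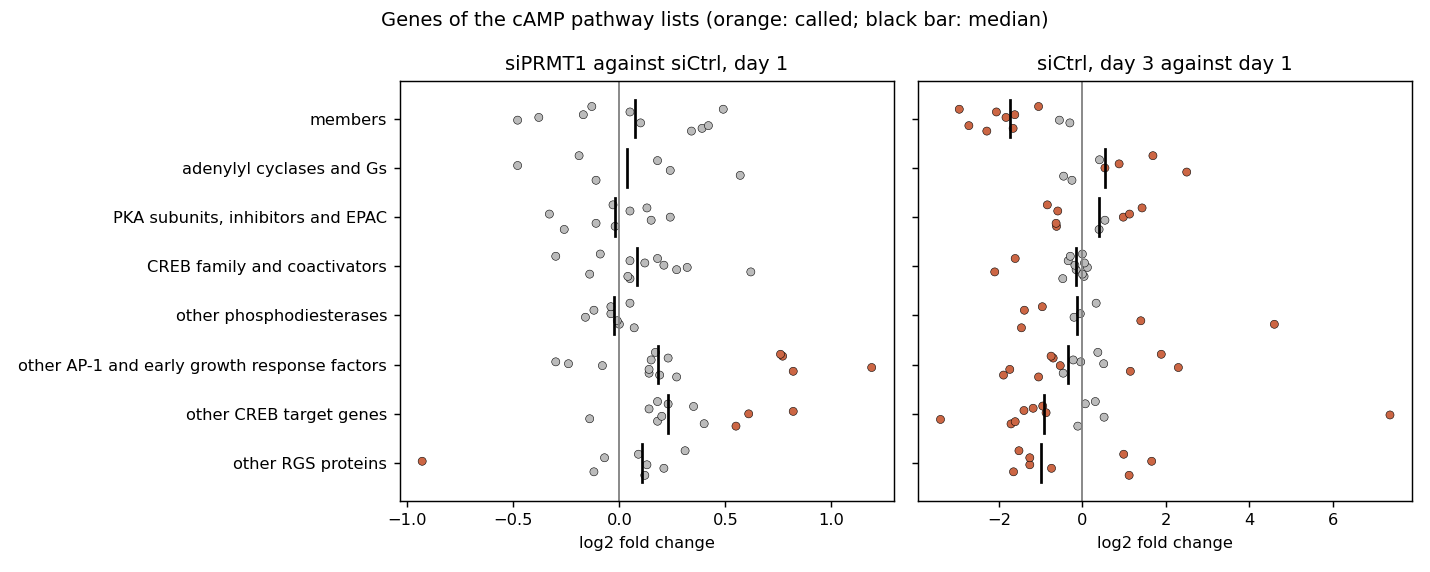
Log2 fold change of each gene of the lists (horizontal axis; vertical position within a list only spreads the points) for siPRMT1 over siCtrl at day 1 (left) and for day 3 over day 1 in siCtrl cells (right), from edgeR. Orange points are called and black bars are medians: on the right the median of the 10 genes is at -1.74 and that of the other CREB targets at -0.91. The median of the cyclases and the stimulatory G protein is at 0.54, over 7 genes tested, some of them at low levels.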

How the data were processed

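Counts per gene of 12 mRNA libraries were used, as deposited, together with the FPKM that the authors made from them. The submitters' notes name cutadapt 1.11, HISAT2 2.1.0, RSEM 1.2.6 and the mm10 build without saying what each did. The counting tool, the strand setting and the treatment of reads with several matches are not given in the sources used here. The deposited counts were whole and not normalized, 15116462 to 42357137 a library, where a count of 0 allows up to 3 counts (0.0708 to 0.198 CPM; counting error only). FPKM recomputed from counts, gene length and library totals matched the deposited FPKM to within 0.00500. Nr4a2 overlaps the gene LOC105244150 by 175 bases (88 counts in all, against 1222 for Nr4a2), and Pde4d overlaps LOC108168038 and Gm32703, which have 17 and 58 counts against 27923.

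Groups came from the labels. Each comparison was fitted over its 6 libraries, and the interaction over 12, with edgeR 4.0.16 in R 4.3.3 (quasi-likelihood test, TMM normalization, filterByExpr filter, Benjamini-Hochberg adjustment over all genes tested). Standard errors were taken as the size of the log2 fold change over the root of its F statistic. Overlap of groups was read from unrounded FPKM, and also from TMM-scaled CPM, which was chosen after seeing the data. Likeness used log2 CPM with a prior count of 2. The gene nearest to Nr4a1 is not reported here. The code was tested on simulated data. Alternatives were DESeq2 1.42.0, RLE normalization, no filter, at least 10 counts in every library, 1 model of 12 libraries, a replicate block, limma 3.58.1 on log2(FPKM + 1) or log2(FPKM + 0.1) for genes averaging 1 FPKM or more, limma with no filter, no threshold on the fold change, and each library left out.

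The genes and lists were chosen with earlier results of these data known. From each list and comparison, up to 3 called genes were eligible to be named, those ranked first by p, and not all of them are named. Columns of the authors' own comparisons were not used.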

Additional observations from a re-analysis of the deposited data

Results flagged for a closer look

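By the interaction test, none of the 10 cAMP-induced genes had an effect of siPRMT1 that differed between the days. Of the 73 other genes of the pathway lists that were tested, 9 did, 12.3% beside 8.24% of all genes tested. Neither count was tested against that share, nor the lists against each other. Values are from edgeR over 12 libraries and give the log2 fold change of siPRMT1 at day 3 minus that at day 1. Fosl1 stood at -2.14 (adjusted p = 9.2e-05), since it was higher in siPRMT1 cells at day 1 and lower at day 3. Maff stood at -1.55 (1.4e-04), Per1 at -0.61 (0.00321) and Klf4 at -0.58 (0.0164). The call of Klf4 was lost without siPRMT1 replicate 1 of day 3, where the value was -0.46. Rgs16 stood at 1.48 (1.0e-04), lower at day 1 and higher at day 3, Rgs4 at 0.94 (9.2e-04) and Gem at 0.84 (1.6e-04). Rgs8 stood at 4.03 (0.0201) on at most 0.137 FPKM, with a mean of 0.00333 FPKM in siPRMT1 cells at day 1. Its value was 6.63 without siPRMT1 replicate 2 of day 1, its call was lost without siPRMT1 replicate 1 (3.57) or 3 (3.54) of day 1, and DESeq2 gave it no adjusted p. Atf3, which is outside the rule for named genes of its list here and was added after its value was seen, stood at -1.08 (0.039). Its call was lost without any 1 of 7 of the 12 libraries (siCtrl replicate 2 and siPRMT1 replicates 1 and 2 of day 1, siCtrl replicate 3 and all siPRMT1 replicates of day 3; edgeR adjusted p 0.0534 to 0.0964). Without siCtrl replicate 3 of day 1 the calls of these 9 genes were kept, and Pkig (-0.67, edgeR adjusted p = 0.00186) and Irs2 (-0.66, 0.00166) were called as well.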

How the results depend on the processing

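Over all alternatives, 713 values of the 10 genes kept their direction and side of the thresholds, 8 were weaker, 7 stronger and 20 reversed. The numbers called lower from day 1 to day 3 were 8 to 9 in siCtrl and 8 to 9 in siPRMT1 cells when 1 library was left out. Of the knockdown at day 1, 0 genes were called higher; this became 1 with limma on log2(FPKM + 0.1), which was Pde10a, 2 with the adjusted p alone, and 0 to 1 without 1 library. At day 3, 1 was called higher and 1 lower with the adjusted p alone. Pde10a missed the adjusted p at day 3 with DESeq2 (0.0621) and with limma and no filter (0.128), and Pde4b with the latter (0.0746). For the interaction, 0 were called higher; this became 1 with no filter, 1 with the replicate block, and 0 to 1 without 1 library, in each case Fos. With limma on log2(FPKM + 1) and no filter, the change from day 1 to day 3 was under the threshold on the fold for Nr4a3 (-0.28 in siCtrl and -0.42 in siPRMT1 cells), Nr4a2 in siCtrl cells (-0.49) and Fosb in siPRMT1 cells (-0.12). The causes were not tested. Reversed values were all small. At day 3 without siCtrl replicate 3, Nr4a1 stood at -0.04 and Pde4d at -0.02 (without 1 library in turn, -0.04 to 0.14 and -0.02 to 0.08). The interaction of Crem was -0.03, -0.05 and -0.03 with the 3 limma fits and -0.06 to 0.09 without 1 library, and that of Fosb -0.26 to 0.03. The interaction of Pde4d was -0.01 with DESeq2 and RLE, -0.02 with at least 10 counts in every library, -0.07 with the 3 limma fits and -0.05 to 0.05 without 1 library.

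The labels share replicate numbers, but do not say whether these pair the samples, and 3 libraries a group are too few to settle it. Deviations from the group means of same-numbered libraries correlated at -0.05 to 0.31 at day 1 and -0.09 to 0.31 at day 3, and not every library correlated best with its own number. With the replicate block, the interaction of Fos was 0.59 (edgeR adjusted p = 0.0294), and no other call of the 10 genes changed. Depth limited Nr4a3 and Fosb most, with 3 to 93 and 11 to 48 counts a library.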
